A study of Homo sapiens with 8 samples.

Results

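The comparison described here set 1 mock-transfected library of A549 cells against 4 libraries of the same cells transfected with a non-targeting control siRNA. A549 is an established human lung adenocarcinoma line. Genes were kept when at least 50 reads lay on them in at least 1 of the 5 libraries, which left 13680 of the 60291 genes in the files. A gene was outside the range when its mock value lay above the highest or below the lowest of the 4 controls. The series holds 8 libraries in all, and its purpose was to find the lncRNAs that respond when NFE2L2, the gene of the antioxidant transcription factor NRF2, is silenced. The controls were made with 2 duplexes (Ctrl siRNA-1 and Ctrl siRNA-2, called control duplex 1 and 2 here), each in 2 transfections labelled rep1 and rep2, and 3 further libraries each received a different duplex against NFE2L2. For every siRNA transfection 250000 cells received 5 nmol of duplex in the lipid reagent Lipofectamine RNAiMAX, and RNA was taken after 48 h. The mock library was made without an siRNA and has no replicate, so every difference below is a description of these 5 libraries, with no test.

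An siRNA is a short RNA duplex whose guide strand is loaded into an Argonaute protein and directs it to matching mRNAs. Cells use the same proteins for their own microRNAs (miRNAs), which Drosha and Dicer cut from longer transcripts. A miRNA pairs mainly through its seed, the bases near its 5′ end, with sites in the 3′ untranslated region (3′ UTR) of mRNAs. Proteins of the TNRC6 family then recruit the enzymes that shorten the poly(A) tail, and the DCP1-DCP2 complex removes the cap. Control duplexes have no intended target, but they too enter this machinery, and their seeds can match 3′ UTRs. A mock transfection differs from a control transfection in lacking the duplex, while both receive the lipid.

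Between 35525141 and 39498992 reads lay on genes in the 5 libraries, the most in the mock library. Levels are given as reads per 1000000 gene reads after TMM scaling (CPM), and differences as log2 of CPM + 0.1. A count of 0 allows a level of up to 0.0749 CPM in the mock library, a floor of 3 counts that covers counting error only. Over 13269 genes with a mean of at least 50 reads, the SD of the log2 difference was 0.19 between the libraries of control duplex 1 and 0.15 between those of control duplex 2. It was 0.24 to 0.30 between libraries of different control duplexes, 0.29 and 0.32 between the mock library and those of control duplex 1, and 0.24 and 0.25 between the mock library and those of control duplex 2. The mock library thus lay about as far from the controls as the control duplexes lay from each other, and nearer to duplex 2. The 10 most abundant genes took 8.23% of the mock reads, 10.2% and 11.2% with duplex 1, and 7.94% and 9.97% with duplex 2. Epithelial keratin genes were abundant in every library, whereas SFTPB had no read in any of the 5 and SCGB1A1 and NKX2-1 had at most 1. The 7 endothelial markers with an identifier had at most 8 reads in any of these libraries, and TIE1, CLDN5 and EMCN had none.

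Few genes stood far from the controls, and most of those that did were lower in the mock library. How far they leaned to that side depended on the read filter and the control set. The mock value lay above the highest control for 3161 genes (23.1% of the genes tested) and below the lowest for 3187 (23.3%). Only 19 genes (0.139%) lay at least 1.5-fold above the range and 104 (0.76%) at least 1.5-fold below it. The median log2 difference between mock and the mean of the controls was 0.01 over all genes. With library size as the only scaling this median was 0.04, and 37.9% of the genes outside the range were below it, against 50.2% with TMM scaling. The genes far from the range had few reads: 84 of the 104 below and 15 of the 19 above fell in the lowest tertile by mean read count. Of the 104 genes, 92 are protein-coding.

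**Figure D1:**
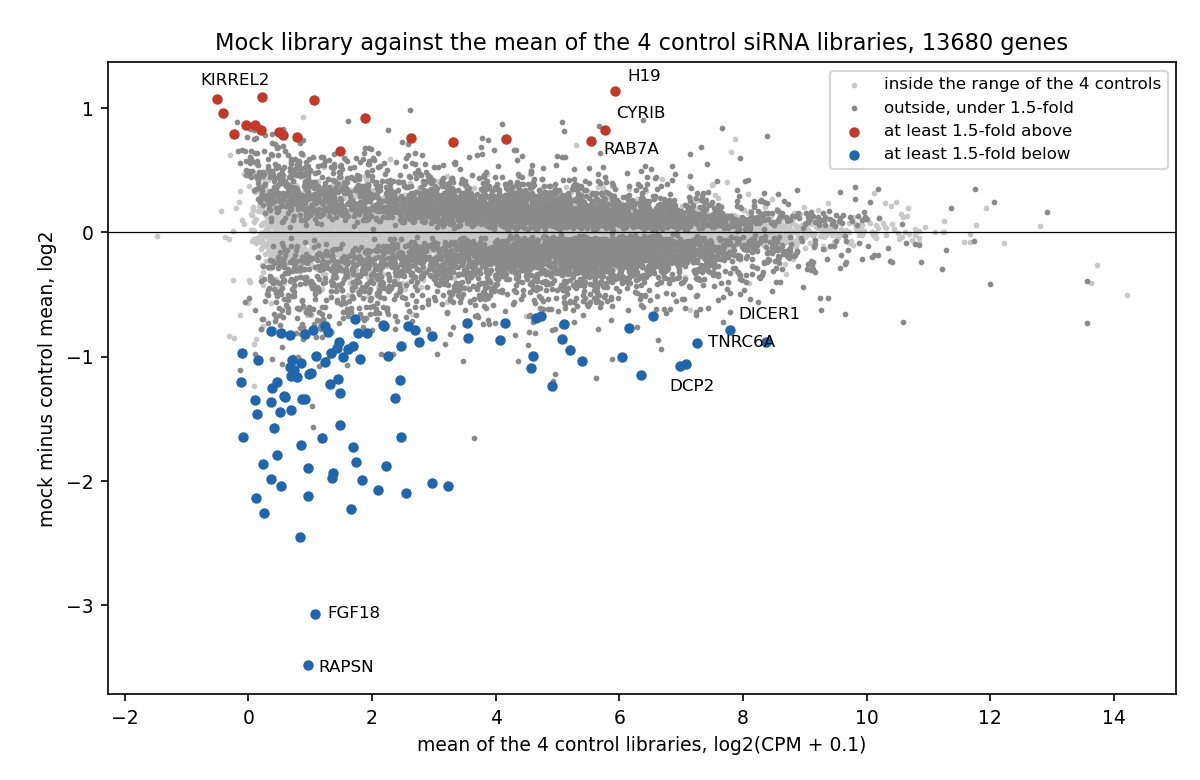
Log2 difference between the mock library and the mean of the 4 control siRNA libraries (vertical axis) against the control mean on the log2(CPM + 0.1) scale (horizontal axis), 1 point a gene. The 104 genes at least 1.5-fold below the range (blue) reach far lower than the 19 genes above it (red) reach upwards, and most sit at low levels.

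The coding genes furthest below the controls had few reads. RAPSN (ENSG00000165917.5, chromosome 11 from 47459315 to 47470695 on the minus strand, GRCh37) encodes rapsyn, which clusters acetylcholine receptors at the neuromuscular junction. It had 3 reads in the mock library against 42 and 69 with control duplex 1 and 84 and 90 with control duplex 2. Its level was 0.0749 CPM in the mock library and 1.93 ± 0.606 CPM (SD, n = 4) in the controls. The ratio of mock to the nearest control was 0.0668, with a 95% exact binomial interval of 0.0132 to 0.209 that covers counting error only. FGF18 (chromosome 5 from 170846651 to 170884630), a secreted fibroblast growth factor, had 6 reads in the mock library against 52, 81, 86 and 82 in the controls. The mock value of both genes was far under all 4 controls, and the controls themselves were lower with duplex 1 than with duplex 2.

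OIT3, a secreted liver protein, had 9 mock reads against 45 to 78, and PYGM, the glycogen phosphorylase of muscle, had 23 against 90 to 130. FERMT3, kindlin-3 of blood cells, which activates integrins, had 37 reads against 129 to 190. NECAB2, a neuronal calcium-binding protein, had 51 against 173 to 232. GCNA, a protein of germ cells, had 87 against 280 to 395, and CHRNA10, a nicotinic receptor subunit of the inner ear, had 47 against 150 to 180. On the log2(CPM + 0.1) scale these 6 genes lay 3.22-fold to 4.01-fold under the lowest control. The rest of the 15 coding genes furthest below were IFFO1, CDKL4, CLDN11 (a tight-junction claudin of myelin and testis), LCT (lactase), SPATA32, CCDC17 and CFAP251 (a protein of cilia and flagella), which lay 2.77-fold to 3.43-fold under it with 6 to 67 mock reads each.

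The 3 libraries with NFE2L2 siRNA, set beside them, had values between the mock library and the controls or near the mock library for most of these genes. RAPSN had 27, 9 and 17 reads with NFE2L2 siRNA-1, -2 and -3. GCNA had 189, 91 and 77, and CHRNA10 had 70, 45 and 47. NECAB2 was lower still, with 5, 13 and 6 reads. Mock and NFE2L2 siRNA are both compared with the same 4 controls here, so a shift of the controls appears in both.

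**Figure D2:**
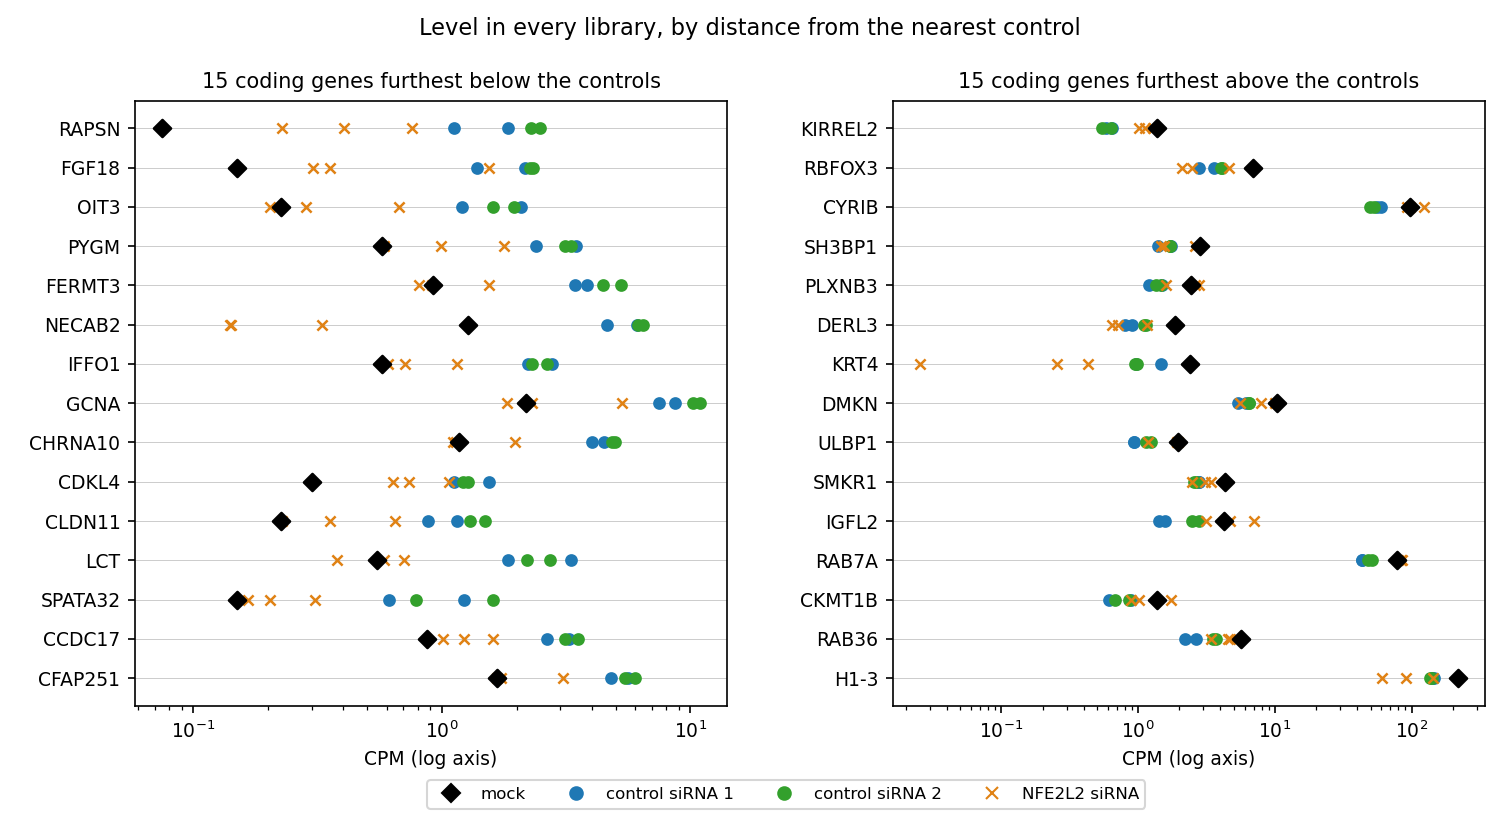
Level in CPM (log axis) of the 15 coding genes furthest below (left) and furthest above (right) the control range, with 1 symbol a library: mock (black diamond), control duplexes 1 and 2 (blue and green circles) and NFE2L2 siRNA (orange crosses). On the left the mock symbol lies apart from the 4 controls, with 3 mock reads for RAPSN against 42 to 90, while on the right the distances are smaller, at most 1.99-fold for KIRREL2.

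Above the range, distances were smaller. KIRREL2, a cell adhesion protein related to nephrin, was furthest, at 1.37 CPM in the mock library and 0.602 ± 0.0467 CPM (SD, n = 4) in the controls (55 reads against 20 to 24). RBFOX3, the neuronal splicing factor NeuN, had 277 reads against 105 to 150. DERL3, of the pathway that clears misfolded proteins from the endoplasmic reticulum, had 75 against 30 to 42, and KRT4, a keratin of stratified epithelia, had 96 against 34 to 55. ULBP1, a ligand of the natural killer cell receptor NKG2D, had 78 against 35 to 45. These genes were low in all libraries, so that the 95% counting interval of the ratio of mock to the nearest control began at 1.07 for ULBP1 and 1.11 for DERL3. With a pseudocount of 0.5 CPM in place of 0.1 CPM, 6 genes in place of 19 were past the limit above the range.

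Abundant genes above the range were fewer. CYRIB, which binds RAC1 and restrains actin polymerisation, stood at 96.5 CPM in the mock library and at 56.0, 60.1, 49.9 and 52.97 CPM in the controls. RAB7A (chromosome 3 from 128412512 to 128544785), the GTPase of late endosomes, stood at 77.5 CPM against 43.5, 43.6, 47.7 and 51.6 CPM. In the NFE2L2 siRNA libraries CYRIB was at 122.9, 97.2 and 92.9 CPM and RAB7A at 84.4, 79.5 and 83.6 CPM, so for both genes the 4 control libraries were the low ones among all 8. The linker histone gene H1-3 was at 218 CPM against 136 to 146 CPM, 1.497-fold above the highest control and just short of the 1.5-fold limit, as was RAB36 at 1.499-fold. RAB7A, at 1.502-fold, was just past it. The rest of the 15 coding genes furthest above were SH3BP1, PLXNB3 (a semaphorin receptor), DMKN, SMKR1, IGFL2, RAB36 and CKMT1B. CKMT1B has a near-identical copy, CKMT1A, so its reads are uncertain, and its counting interval began at 0.995.

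Genes of the RNA interference pathway held 3 of the most abundant genes far below the range. Of the 25 genes tested on a list of the miRNA and siRNA machinery, 7 were below the lowest control, 2 above the highest, and 3 at least 1.5-fold below, against 0.76% of all genes. The list's median log2 difference was −0.03, and 0.0074 with library size as the only scaling. The SD of the same median among the 4 controls was 0.03. DICER1 (ENSG00000100697.10, chromosome 14 from 95552565 to 95624347), the nuclease that cuts miRNA precursors and long double-stranded RNA, stood at 128 CPM in the mock library. In the controls it stood at 246, 216, 217 and 205 CPM, a mean of 221 ± 17.7 (SD, n = 4), and in the NFE2L2 siRNA libraries at 190.2, 244 and 267 CPM. The mock library was thus the lowest of all 8.

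TNRC6A (ENSG00000090905.13, chromosome 16 from 24621530 to 24838953), the GW182 protein that links Argonaute to deadenylation, stood at 82.6 CPM against 153 ± 3.81 CPM (SD, n = 4). The ratio of mock to the nearest control was 0.552 (95% counting interval 0.529 to 0.577). With NFE2L2 siRNA it was at 143, 164 and 197 CPM. DCP2 (ENSG00000172795.11, chromosome 5 from 112312399 to 112357892), the decapping enzyme, stood at 64.8 CPM against 144, 139, 131 and 128 CPM in the controls. The NFE2L2 siRNA libraries had 190.03, 131 and 134 CPM, so the mock level of DCP2 was lower than all 7 siRNA libraries by at least 1.98-fold on the log2(CPM + 0.1) scale. Each gene had 2596 to 5142 mock reads, which leaves counting error small.

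Other members of the list lay nearer to the controls. AGO4 was at 10.9 CPM against 14.1 to 15.8 CPM and AGO2, the Argonaute that cuts its target, at 46.2 CPM against 48.6 to 63.2 CPM, while AGO1 and AGO3 were inside the range. MOV10, a helicase bound to Argonaute, was at 39.0 CPM against 43.0 to 46.3 CPM. TSN and TSNAX, the subunits of C3PO, which removes the passenger strand, were above the range, TSNAX at 118 CPM against 95.8 to 107 CPM. DROSHA, DGCR8 and XPO5, which act on miRNA precursors before DICER1, were inside it.

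**Figure D3:**
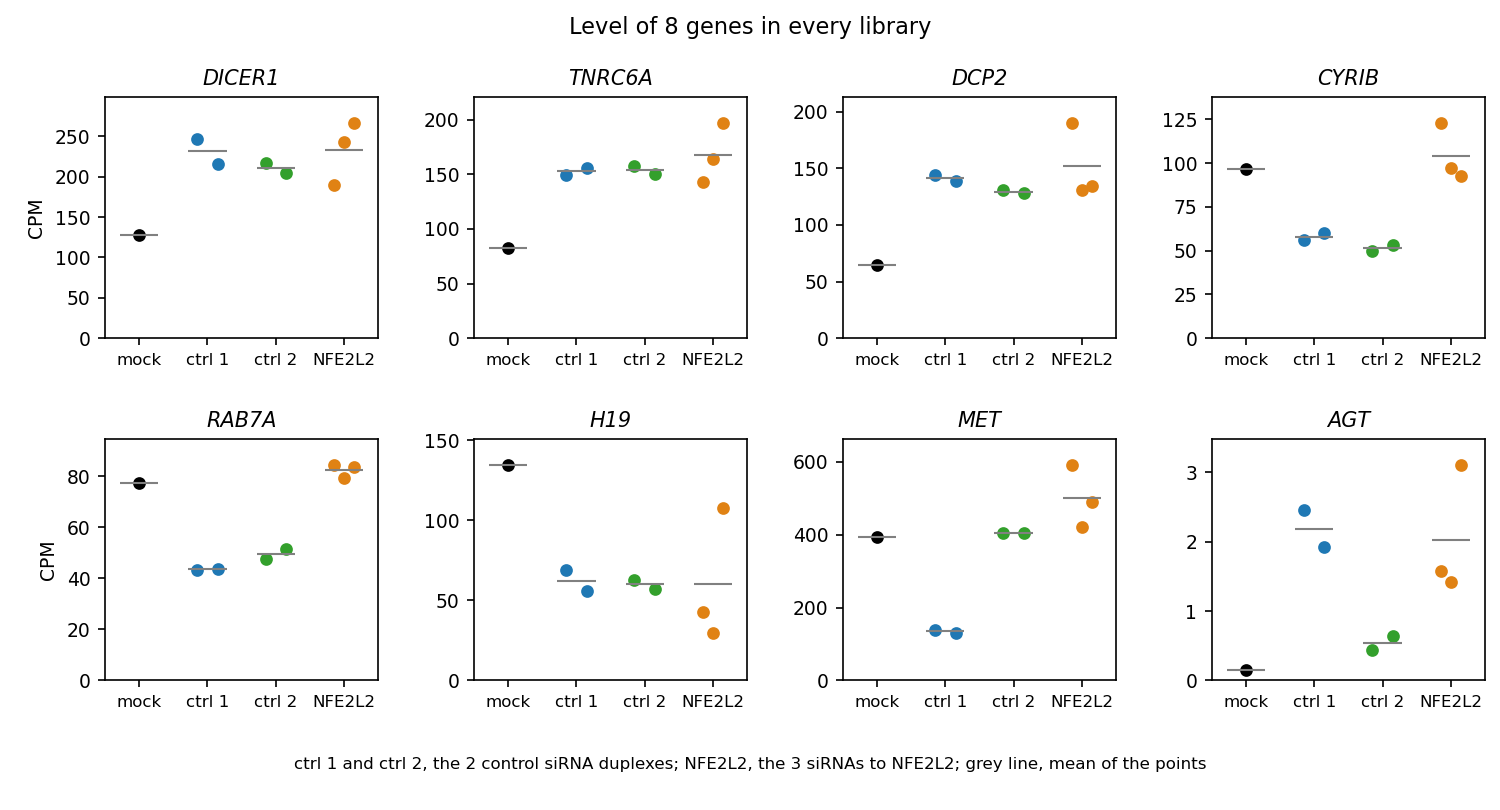
Level in CPM (vertical axis from 0) of 8 genes in the mock library, the libraries of control duplex 1 (ctrl 1) and control duplex 2 (ctrl 2) and the 3 NFE2L2 siRNA libraries, with the mean of each as a grey line. DICER1, TNRC6A and DCP2 are lowest in the mock library, CYRIB and RAB7A are lowest in the controls, and MET is low only with control duplex 1.

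With the 3 NFE2L2 siRNA libraries added to the range, 43 genes (0.314%) lay at least 1.5-fold below all 7 siRNA libraries and 3 (0.0219%) above them, DERL3, KRT4 and the antisense transcript ATP2A1-AS1. Of the 104 genes below the control range alone, the rest thus had an NFE2L2 siRNA library within 1.5-fold of the mock value or lower. DCP2 and TNRC6A were among the 43, and DICER1 was 1.48-fold below the lowest of the 7. Several further genes among the 43 were chosen for naming after their values were seen. TGFBR2, the type II receptor of TGF-beta, was at 180.3 CPM in the mock library against 297 to 393 CPM in the controls and 345 to 502 CPM with NFE2L2 siRNA. PHLPP2, a phosphatase that acts on AKT, was at 41.97 CPM against 69.1 to 78.3 and 88.2 to 99.1 CPM. IL6R, the interleukin-6 receptor, was at 12.1 CPM against 20.02 to 29.9 and 19.7 to 29.1 CPM, and the metalloprotease ADAM19 at 18.99 CPM against 34.6 to 42.9 and 68.7 to 72.4 CPM.

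The pathway lists gave small differences in the mock library, and 2 of them held a member at least 1.5-fold below the range, the RNA interference list and the hypoxia list. In the list of interferon and double-stranded RNA sensing genes 4 of 39 members were above the range and 11 below, against 23.1% and 23.3% of all genes, with a median log2 difference of −0.05. OAS1, which senses double-stranded RNA, was at 32.3 CPM against 23.4 to 28.5 CPM, and EIF2AK2, the kinase PKR, at 139 CPM against 112 to 132 CPM, while ISG20 was at 9.83 CPM against 12.4 to 14.7 CPM. The genes did not move uniformly, but the share above was 10.3% and the share below 28.2%. OAS1 and EIF2AK2 were thus among the few members above the range. With TMM scaling the list median was slightly lower than that of each control library (−0.03 to 0.01).

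The targets of YAP and TGF-beta were lowest, with 12 of 23 members below the range, none above, and a median of −0.28. COL4A1, a basement membrane collagen, was at 97.1 CPM against 142 to 159 CPM, LATS2, a kinase of the Hippo pathway, at 32.4 CPM against 44.1 to 48.5 CPM, and the growth factor gene CTGF (now CCN2) at 8.91 CPM against 12.1 to 16.8 CPM. Of the immediate early genes 13 of 23 were below and 1 above, with a median of −0.17. DUSP5, a phosphatase of ERK, was at 206 CPM against 282 to 336 CPM and JUN at 33.5 CPM against 40.5 to 53.7 CPM. Of the genes of sterol and fatty acid synthesis 19 of 38 were below and 3 above, with a median of −0.11, among them INSIG1, which holds back the sterol-sensing transcription factors (55.4 CPM against 73.7 to 81.2 CPM).

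Of 27 hypoxia and glycolysis genes 13 were below the range and 2 above, with a median of −0.18. PFKFB4, an enzyme that sets the rate of glycolysis, was at 11.1 CPM against 18.3 to 26.8 CPM. CA9, a carbonic anhydrase induced by hypoxia, was at 3.89 CPM in the mock library, at 32.8 and 16.3 CPM with control duplex 1 and at 8.03 and 5.596 CPM with control duplex 2. EGLN3, an oxygen-sensing hydroxylase, followed the same order, at 14.0 CPM against 65.8, 37.7, 19.5 and 18.8 CPM. The controls differed among themselves in these genes, and against control duplex 2 alone the median of the list was −0.04. Without control siRNA 1 replicate 1 it was −0.0904.

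Lists on the upper side were those of DNA replication, histones and translation. Of the S phase genes 12 of 23 were above the range and 1 below, with a median of 0.11. MCM6, a subunit of the replicative helicase, was at 109 CPM against 77.6 to 91.9 CPM. Of the replication-dependent histone genes 13 of 28 were above and 2 below, with H1-5 at 115 CPM against 78.4 to 83.9 CPM. Of 82 cytosolic ribosomal protein genes 34 were above and none below, with a median of 0.08. Control siRNA 1 replicate 2 had a higher median over this list, 0.09 against the mean of the controls. The summed level of the list, 47059 CPM in the mock library, was inside the control range of 41979 to 47591 CPM. In the mitochondrial genome 7 of 15 genes were above and none below. The mitochondrial share of gene reads was 0.589% in the mock library and 0.491% to 0.588% in the controls. Of 24 mitosis genes 6 were above and 5 below, close to the shares over all genes.

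Of 26 ATF4 and unfolded protein genes 9 were above and 2 below, with a median of 0.17. The median was 0.0973 without control siRNA 1 replicate 1 and 0.0652 against control duplex 2 alone. ASNS, asparagine synthetase, was at 54.9 CPM against 29.9 to 45.3 CPM. The lowest control for ASNS was replicate 1 of duplex 1, whose own median over this list was −0.19 against the mean of the controls. Of 28 p53 and apoptosis genes 3 were above and 10 below, with CCNG1 at 176 CPM against 234 to 266 CPM. The medians were 0.005 for endocytosis and lysosome genes (4 of 30 above, 7 below) and −0.05 for NF-kB targets (3 of 23 above, 4 below). They were 0.0008 for heat shock genes (3 of 19 above, 2 below) and −0.005 for metallothioneins and zinc transporters (1 of 10 above, 4 below).

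**Figure D4:**
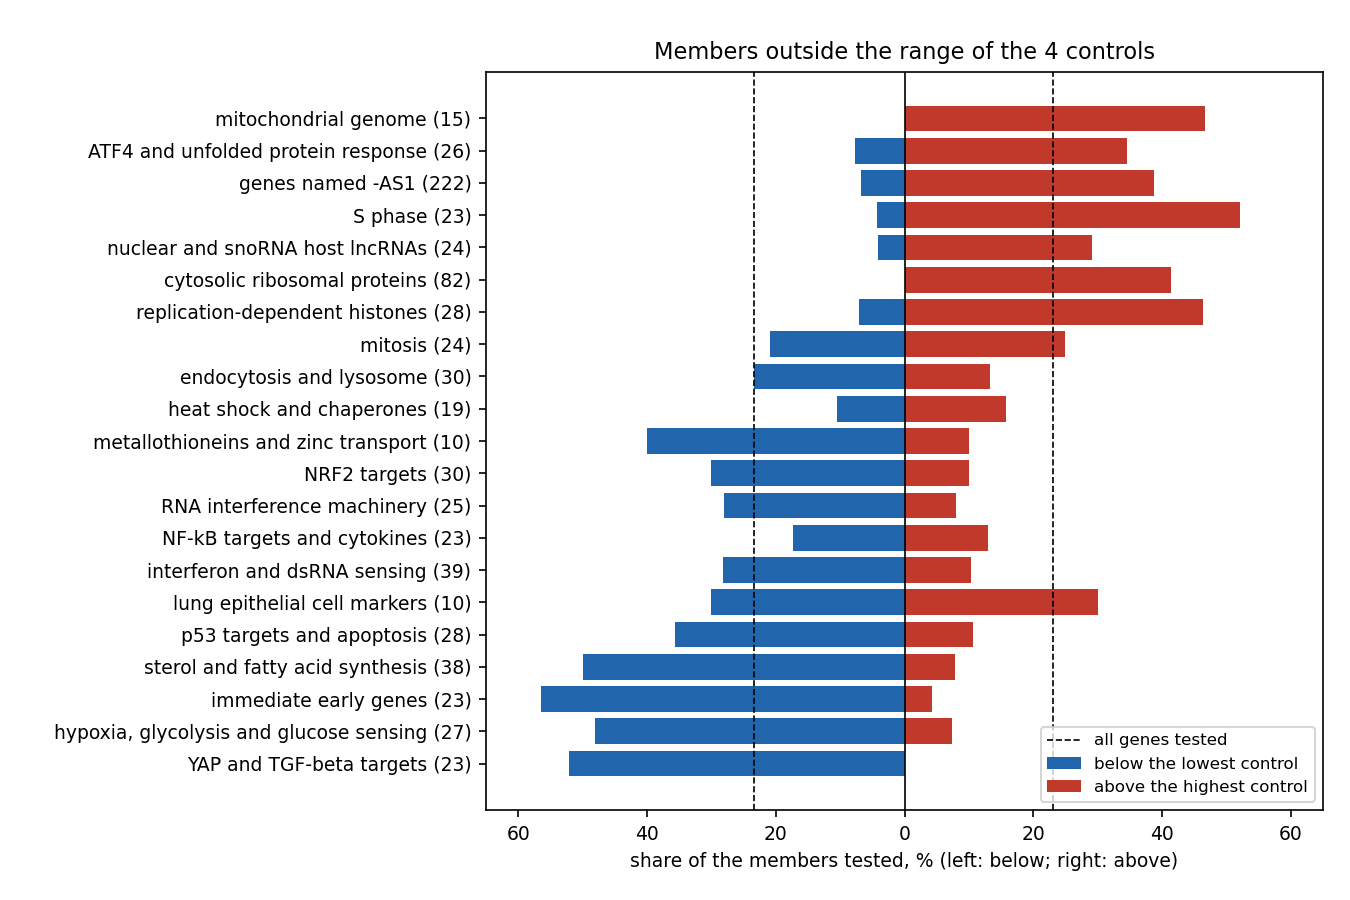
Share of the tested members of each gene list (number in brackets) that lay below the lowest (blue, left) or above the highest (red, right) of the 4 controls, in percent, ordered by the list's median difference, with the shares over all genes as dashed lines at 23.3% and 23.1%. Targets of YAP and TGF-beta, hypoxia, immediate early and sterol genes lean to the left, and S phase, histone, ribosomal protein and mitochondrial genes to the right.

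NFE2L2 and its targets were near the controls. NFE2L2 was at 109.98 CPM in the mock library, inside the control range of 106 to 117 CPM, and at 33.1, 51.8 and 29.9 CPM with the siRNAs against it. KEAP1, which marks NRF2 for degradation, was at 77.996 CPM against 78.6 to 90.3 CPM. By the paper's account, A549 cells carry a KEAP1 mutation that removes its function, so that NRF2 protein is always high in them. Of 30 NRF2 target genes 3 were above the range and 9 below, with a median of −0.03. The sign of this median turned without control siRNA 1 replicate 1 (0.0033), against duplex 2 alone (0.0136) and with library size as the only scaling (0.0091). The reductase NQO1 was within the range, at 2222 CPM, and the glutathione synthesis gene GCLM stood at 241 CPM against 236 to 241 CPM. The furthest were AKR1B10, an aldo-keto reductase, at 3052 CPM against 3604 to 4845 CPM, and the aldehyde dehydrogenase ALDH3A1 at 1475 CPM against 1098 to 1256 CPM.

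Markers of other cell types were at low levels. The summed level of the 10 fibroblast markers was 14.9 CPM in the mock library and 14.2 to 16.9 CPM in the controls, with 4 of 10 genes past the read filter. For the 10 haematopoietic markers it was 6.54 against 7.29 to 8.86 CPM, with 2 past the filter, CD14 inside the range and ITGAM 1.07-fold below it. PTPRC, which marks white blood cells, and HBA1 had no mock read. For the 7 endothelial markers it was 0.175 against 0.294 to 0.471 CPM, and none passed. The 16 lung epithelial markers summed to 10894 CPM against 8754 to 9277 CPM, of which KRT18 made 4388 CPM against 3397 to 3521 CPM. Of the 10 past the read filter 3 were above the range and 3 below, with a median log2 difference of −0.06. All libraries were of a single established line, so these sums are not read as shares of cell types. Bulk RNA does not tell fewer cells from less RNA per cell, and the part of these markers in the differences was not tested.

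Long non-coding RNAs lay above the range more often than below it. Of 757 lncRNAs tested 246 were above (32.5%) and 93 below (12.3%), with a median log2 difference of 0.10, against 22.4% and 24.4% of 12069 coding genes. Of the 222 genes whose symbol ends in -AS1, antisense to a neighbour, 86 were above and 15 below. The counting used strand, so such reads are told apart from those of the neighbour. H19 (chromosome 11 from 2016396 to 2025782 on the minus strand), an imprinted RNA that also holds a miRNA, was furthest above, at 134 CPM in the mock library against 69.0, 55.7, 62.8 and 57.4 CPM. It was at 42.6, 29.5 and 107.7 CPM with NFE2L2 siRNA, so the mock value was the highest of all 8 libraries, though NFE2L2 siRNA-3 came close. In the list of nuclear lncRNAs and hosts of small nucleolar RNAs 7 of 24 members were above and 1 below, and SNHG16 was at 251 CPM against 153 to 189.6 CPM.

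The lncRNA furthest below was PITRM1-AS1, with 33 mock reads against 113, 118, 135 and 112 in the controls and 35, 30 and 30 with NFE2L2 siRNA. APRG1 (14 reads against 46 to 100) and LINC01909 (17 against 52 to 79) followed, and the next, ENSG00000226332 and ENSG00000261051, were 1.59-fold and 1.51-fold below the lowest control. Of 34 small nucleolar RNA genes past the filter 19 were below the range and none above, with a median of −0.40. Their levels were low, with a median of 3.84 CPM in the controls.

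The control duplexes also differed from each other, here counted where both libraries of one duplex lay at least 1.5-fold beyond both of the other. In 74 such genes duplex 1 was higher, and the mock value lay nearer duplex 2 on the log2 scale for 54 and nearer duplex 1 for 20. In 122 genes duplex 2 was higher, and the mock value lay nearer duplex 2 for 109 (89.3%) and nearer duplex 1 for 13. These counts follow the groups the rule chose, and the mock value was beyond both pairs in some of them. It was below all 4 controls for 24 and above them for 1 of the genes higher with duplex 1, and above all 4 for 27 and below them for 4 of those higher with duplex 2. MET (chromosome 7 from 116312250 to 116438431), the receptor of hepatocyte growth factor, stood at 138 and 131 CPM with duplex 1 and at 404 and 404 CPM with duplex 2. The mock library had 393 CPM and the NFE2L2 siRNA libraries 591, 421 and 489 CPM, so duplex 1 alone was low.

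PTPMT1, a mitochondrial phosphatase, showed the same order, at 10.1 and 10.3 CPM with duplex 1, 27.9 and 28.8 CPM with duplex 2 and 31.2 CPM in the mock library. RAB39A and IGFBPL1 were likewise low with duplex 1 only. H3P6 is a histone pseudogene that can share reads with its near-identical parent genes, and its values are uncertain. On the other side AGT, angiotensinogen, was at 2.45 and 1.92 CPM with duplex 1, at 0.434 and 0.637 CPM with duplex 2 and at 0.1497 CPM in the mock library (6 reads). DDAH1, which breaks down an inhibitor of nitric oxide synthase, was at 58.8 and 60.9 CPM with duplex 1, 21.4 and 22.2 CPM with duplex 2 and 24.6 CPM in the mock library. The protease inhibitor SERPINB9 lay between the pairs, at 43.99 CPM against 57.3 to 63.5 and 23.7 to 24.3 CPM. TM4SF5 also lay between them, and PRODH2 was below both.

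Genes with miRNA seed matches were set beside all coding genes with a 3′ UTR, themselves included. This was done after the values of DICER1, TNRC6A and DCP2 had been seen, so it is a description and not a test. Mature sequences from RefSeq (GRCh38.p14) are shown for 9 of the families searched, among them those with the lowest and the highest medians, with the seed, bases 2 to 8, in capitals.
hsa-miR-92a-3p: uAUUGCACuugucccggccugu
hsa-miR-21-5p: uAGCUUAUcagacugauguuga
hsa-miR-17-5p: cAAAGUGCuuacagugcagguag
hsa-miR-29a-3p: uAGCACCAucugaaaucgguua
hsa-miR-221-3p: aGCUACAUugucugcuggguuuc
hsa-let-7a-5p: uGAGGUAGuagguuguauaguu
hsa-miR-24-3p: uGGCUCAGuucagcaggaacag
hsa-miR-122-5p: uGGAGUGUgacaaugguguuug
hsa-miR-1-3p: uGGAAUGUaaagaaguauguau
The first 7 are found in many tissues, whereas miR-122 is known for liver and miR-1 for muscle. A match was the complement of the seed followed by A, 8 bases, searched on the sense strand of the 3′ UTR of each gene's Ensembl canonical transcript. It was GTGCAATA for miR-92a-3p, ATAAGCTA for miR-21-5p, GCACTTTA for miR-17-5p and CTACCTCA for let-7a-5p, and 3.77%, 2.92%, 5.59% and 4.30% of the 12004 UTRs held it. For miR-122-5p it was ACACTCCA, held by 3.36%.

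Over all 12004 coding genes with a 3′ UTR the median log2 difference of mock from the control mean was 0.0048, with 24.5% of the genes below the range and 22.4% above. Of 452 genes with a miR-92a-3p match 38.7% were below and 11.1% above, with a median of −0.07. For 351 genes with a miR-21-5p match these were 38.7% and 14.5% (median −0.06), and for 671 genes with a miR-17-5p match 39.3% and 12.7% (median −0.05). These medians amount to small shifts spread over many mRNAs. For let-7a-5p the shares were 34.5% and 18.2% (median −0.03). For miR-24-3p they were 27.5% and 20.4%, for miR-122-5p 27.0% and 21.3%, and for miR-1-3p 27.1% and 20.3%, close to the shares over all genes. Families known for blood, heart or brain lay further from these. The share below was 35.1% for miR-142-3p, 32.1% for miR-208a-3p (84 genes), 30.9% for miR-9-5p and 30.2% for miR-223-3p. Their shares above ran from 13.1% to 17.4%. The shift was thus not limited to miRNAs found in many tissues.

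All 28 families searched had a median under that of all genes. They were grouped beforehand as 22 of many tissues and 6 known for muscle, heart, liver, brain or blood. This grouping used no miRNA levels of these cells. The 22 include miR-141-3p, miR-192-5p, miR-194-5p and miR-200b-3p, whose spread over tissues was not examined. Against control duplex 1 alone this held for 22 of the 22 and 3 of the 6, and for 5 of the 6 when either library of duplex 2 was left out. With all 4 controls the median ranged from −0.07 to −0.0026 in the 22 and from −0.03 (miR-142-3p of blood) to −0.0034 in the 6. For 11 of the 22 and 1 of the 6 the mock median was also lower than that of each control library taken alone. Each control contributes to the mean it is set against, which pulls its own value towards 0. Long 3′ UTRs hold more matches: the median difference was 0.03 in the shortest tertile of UTR length and −0.01 in the longest. Within the longest tertile it was −0.06 for miR-92a-3p, −0.04 for miR-17-5p and −0.05 for miR-21-5p, and −0.0018 for miR-122-5p. For the rest of the 6 it was −0.05 (miR-208a-3p), −0.04 (miR-142-3p), −0.02 (miR-223-3p) and −0.01 (miR-1-3p and miR-9-5p). In the tertile of 3′ UTRs with the smallest share of G and C bases, all genes had −0.01. Genes with miR-92a-3p, miR-21-5p and miR-122-5p matches each had −0.06 there. In the tertile with the largest share they had −0.06, −0.09 and 0.02. Many genes hold matches to several families, so the families are not independent, and the levels of miRNAs were not measured.

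**Figure D5:**
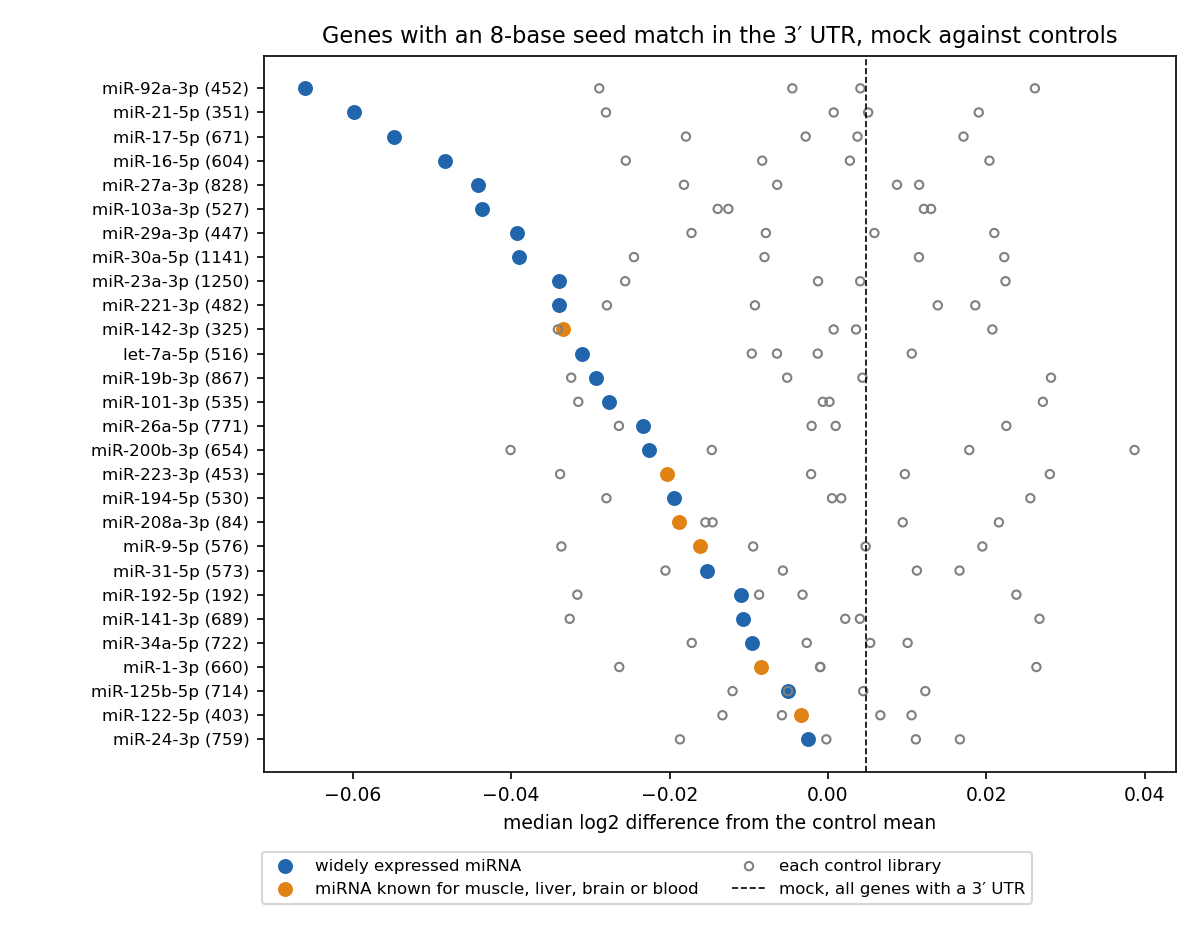
Median log2 difference from the mean of the 4 controls (horizontal axis) of the genes with an 8-base seed match to each of 28 miRNAs (number of genes in brackets), for the mock library (filled: blue for widely expressed miRNAs, orange for miRNAs known for muscle, liver, brain or blood) and for each control library (open grey). The dashed line marks the mock median over all genes with a 3′ UTR, 0.0048, and every filled point lies to its left, from −0.07 for miR-92a-3p to −0.0026 for miR-24-3p.

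The 3 genes of the RNA interference list that were far below the range hold such matches themselves. The 3′ UTR of DICER1 (4270 bases) had 7 matches to 4 of the 22 families, that of TNRC6A (2411 bases) 5 to 4 and that of DCP2 (8711 bases) 6 to 5. These 30-base windows of GRCh37 show 4 of them, written along the mRNA with the match in capitals.
DICER1, miR-103a-3p, chr14:95555783-95555812, minus strand: acacctaaaatATGCTGCAgattttataat
TNRC6A, miR-30a-5p, chr16:24835863-24835892, plus strand: ttgaaccttctTGTTTACAgatttttttgt
DCP2, miR-29a-3p, chr5:112350706-112350735, plus strand: tgtcaccctttTGGTGCTAagcaggagaat
DCP2, miR-221-3p, chr5:112349884-112349913, plus strand: tgctggaggaaATGTAGCAgacagcatgga
A match of 8 letters shows only that the letters are there, and 4.39% of the 12004 UTRs held that of miR-103a-3p and 9.51% that of miR-30a-5p. Over the 22 families this share ran from 1.60% (miR-192-5p) to 10.4% (miR-23a-3p). The median length of the 12004 UTRs was 1356 bases, shorter than each of these UTRs. Matches to the 22 families together were not counted over all UTRs, so the counts above have no background.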

How the data were processed

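Total RNA of A549 cells was sequenced as strand-specific libraries. Per the labels and the methods of the study, the authors aligned the reads to hg19 with HISAT 0.1.6 and deposited counts, the whole number of reads that HTSeq 0.6.0 assigned to each gene of GENCODE v19 (RefSeq for LINC00942), with no normalization. Groups came from the labels. The HTSeq summary rows, which name no gene, were dropped, leaving 62.2% to 65.6% of entries in the 5 libraries. Counts were scaled by TMM over all 8 libraries (edgeR 4.0.16, R 4.3.3) and analysed in Python 3.11.15 with pandas 2.3.3 and scipy 1.17.1. Names, types and 3′ UTRs came from GENCODE v44 on GRCh37, which held 55538 of the 60291 identifiers, since release 19 was not used here. The members and lists were chosen with earlier results of these data known.

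Named were the 15 coding genes and 5 lncRNAs furthest beyond the range on each side, NFE2L2, KEAP1, from each list the members at least 1.5-fold beyond it or otherwise the furthest 2, and the 5 genes furthest apart between the duplexes on each side; further list members and the genes below all 7 siRNA libraries were chosen after their values were seen. No test was made with 1 mock library. The alternatives were other scalings, including DESeq2 1.42.0 size factors, read filters, pseudocounts, fold limits and control sets. The range rule was tested on simulated data.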

Additional observations from a re-analysis of the deposited data

Results flagged for a closer look

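In 4 of the 93 genes named by rule or list, 1 of the 4 control libraries stood apart from the others, its gap to the nearest taking a larger part of the whole range than Dixon's 95% critical value. Chance alone gives such a flag in about 1 of 20 groups. FOS, an immediate early transcription factor, was highest in control siRNA 1 replicate 1, at 33.27 CPM with the next control at 25.1 CPM and the mock library at 19.2 CPM. In that library NECAB2 was lowest, at 4.615 CPM with the next control at 6.12 CPM and mock at 1.27 CPM, and so was SH3BP1, at 1.387 CPM with the next control at 1.71 CPM and mock at 2.84 CPM. KRT4 was highest in control siRNA 1 replicate 2, at 1.47 CPM with the next control at 0.977 CPM and mock at 2.40 CPM. In all 4 genes the mock value was outside the range of the controls with or without the library that stood apart.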

How the results depend on the processing

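No paired analysis was possible because the values come from no test and the replicate numbers are repeats within a control duplex, with 1 mock library. No gene named by the rule as outside the range moved to its opposite side under the alternatives run, but medians of lists near 0 changed sign. With 3 controls in place of 4, 3671 to 3948 genes were above and 3604 to 3735 below the range. At least 1.5-fold above it were 24 to 32, the most without control siRNA 2 replicate 1, against 19, and 114 to 143 were at least 1.5-fold below it, against 104. Against control duplex 1 alone 5511 genes were above and 5306 below, 239 and 278 of them by at least 1.5-fold, and against duplex 2 alone 5481 and 5205, with 65 and 190; a range of 2 libraries is narrower by construction. Against all 7 siRNA libraries these were 1683 and 1712, with 3 and 43. Leaving out each control in turn, chosen after seeing the data, gave 48 to 59 genes at least 1.5-fold below the remaining siRNA libraries, and 3 to 7 above them against 3 (7 without control siRNA 1 replicate 2, 6 without control siRNA 2 replicate 1 and 5 without control siRNA 1 replicate 1). A minimum of 10 reads gave 73 genes at least 1.5-fold above and 223 below. A minimum of 1 read gave 5772 above and 5042 below, 142 and 304 by at least 1.5-fold, and one of 200 reads 7 and 34. A pseudocount of 0.5 CPM left 6 above, and 1 CPM left 5 above and 47 below. A limit of 1.2-fold gave 218 and 502, and one of 2-fold 0 and 37. With library size as the only scaling the list medians were −0.0165 for interferon, 0.0074 for RNA interference and 0.0396 for endocytosis genes. Against control duplex 1 alone they were −0.2146 for sterol, 0.0213 for endocytosis, −0.1355 for YAP and TGF-beta and −0.0605 for metallothionein genes, and against duplex 2 alone −0.0143 for endocytosis, −0.0372 for hypoxia and 0.1242 for histone genes. The endocytosis median ranged from −0.0065 to 0.0066 with 1 control left out. The NF-kB median (−0.0494) was 0.0921 against duplex 1 alone and 0.0307 without control siRNA 2 replicate 2, and that of lung epithelial markers (−0.0588) was 0.0098 against duplex 2 alone. Those of NRF2 targets, heat shock genes and metallothioneins also changed sign. Of the seed-match medians 219 moved by less than the spread between controls and 33 by more. The cause of these shifts was not tested. Genes at a few reads have wide counting intervals, and nothing here measures how a second mock library would vary.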
